A study of Mus musculus with 5 samples.

Results

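The mouse mitochondrial genome is a small circular chromosome that carries 37 genes. Here it is described through all 37 rows of the count table whose gene symbol starts with mt-, out of 54532 gene IDs, and 28037 of these IDs were counted at least once. The members are 13 protein genes, 2 ribosomal RNA (rRNA) genes and 22 transfer RNA (tRNA) genes, and all 37 lie on chromosome M in the GENCODE M21 annotation. RNA was sequenced from kidneys of wild-type male C57BL/6J mice aged 8 weeks. The vehicle group had 3 libraries from mice injected intraperitoneally with vehicle every day for 3 days. The DMXAA group had 2 libraries from mice injected in the same way with DMXAA at 10 mg/kg, and tissue was taken on day 3 in both groups. DMXAA binds and switches on mouse STING, an adaptor protein linking the sensing of DNA in the cytosol to interferon production. The labels do not say that each library had its own mouse, and p-values therefore measure only the spread between these libraries, which may be technical. In whole tissue, fewer cells of a type and less RNA per cell cannot be told apart.

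The proteins made from mitochondrial DNA are core subunits of the machinery of oxidative phosphorylation. Complexes I, III and IV pass electrons to oxygen and pump protons, and complex V, the ATP synthase, uses the proton gradient to make ATP. Most subunits of these complexes are encoded in the nucleus, and complex II is wholly nuclear. Mitochondrial genes are copied as long transcripts from the 2 strands and then cut, mostly at the tRNAs, so that mRNA levels also depend on processing and decay. Kidney tubules reabsorb large amounts of solute and are rich in mitochondria, and mitochondrial DNA that leaks into the cytosol is a known trigger of the cGAS-STING pathway.

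Part of the mitochondrial genome has a near-identical copy in the nuclear genome, and the counts of the genes in it have to be read with that copy in view. Aligning the 37 members to annotated nuclear transcripts found 27 nuclear copies, of which 7 lay side by side and in the same order on chromosome 1. These 7 pseudogenes span chr1:24611535-24616197 on the minus strand (mm10) and correspond to chrM:6390-11042. Their identity to the mitochondrial genes was at least 99.71%. The mitochondrial stretch holds mt-Co2, mt-Atp8, mt-Atp6, mt-Co3, mt-Nd3 and mt-Nd4l whole, the end of mt-Co1 and the start of mt-Nd4. Gm10925 matched mt-Atp6 with 0 differences over 678 bases. Their first 100 bases, at chrM:7927-8026 and on the minus strand at chr1:24614552-24614651, are shown because no base in them can assign a read to one or the other.
mt-Atp6: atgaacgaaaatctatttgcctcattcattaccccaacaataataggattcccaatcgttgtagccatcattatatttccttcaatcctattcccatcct
Gm10925: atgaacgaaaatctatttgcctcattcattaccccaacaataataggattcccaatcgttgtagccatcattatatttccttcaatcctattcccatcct

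The same held for mt-Co2 and Gm28661 over 681 bases, mt-Co3 and Gm28437 over 783 bases, mt-Nd4l and Gm10222 over 294 bases and mt-Nd4 and Gm28439 over 876 bases, with 0 differences in each. For mt-Nd3 and Gm28438 there was 1 difference in 345 bases, T3C, counted from 1 at the first base of mt-Nd3. The start of both genes, at chrM:9459-9539 and on the minus strand at chr1:24613039-24613119, is shown with that base in capitals.
mt-Nd3: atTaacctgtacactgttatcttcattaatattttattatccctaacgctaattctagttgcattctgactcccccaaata
Gm28438: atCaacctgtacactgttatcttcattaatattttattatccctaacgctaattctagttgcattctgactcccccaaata

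Outside this stretch the copies were more diverged. Gm13340 on chromosome 2 covers all 1545 bases of mt-Co1 with 37 differences, and within the first 100 bases these were C54A, A60G and G87A, counted from 1 at the first base of mt-Co1. The stretches at chrM:5328-5427 and, on the minus strand, at chr2:22589548-22589647 are shown for contrast, with the differences in capitals.
mt-Co1: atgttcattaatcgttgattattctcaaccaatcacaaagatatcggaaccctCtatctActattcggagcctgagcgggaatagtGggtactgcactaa
Gm13340: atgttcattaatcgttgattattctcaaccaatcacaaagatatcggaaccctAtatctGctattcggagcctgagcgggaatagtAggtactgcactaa

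Library totals ran from 17667490 to 20264228 counts. Kidney markers were abundant in all 5 libraries, with the proximal tubule phosphate transporter gene Slc34a1 at 2967 to 4218 CPM, the count scaled to library size with TMM factors. One vehicle library stood apart: the summed level of 8 adipose markers was 732 CPM in vehicle library 1 while the other 4 held 27.7 to 55.8 CPM, and that of 7 urothelium markers was 139 CPM against 2.56 to 19.4 CPM. Of the 5 adrenal markers Cyp11b1 and Cyp11b2 and of the 7 skeletal muscle markers Myh4 had 0 counts in all libraries. The other markers of these lists were counted, and 2 of each list passed the filter on low counts. Summed levels were 5.05 to 7.21 CPM for the adrenal and 9.75 to 22.2 CPM for the skeletal muscle markers. For some results the value without vehicle library 1 is also given.

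Levels per length showed a step at the edges of the copied stretch. Levels are compared here as CPM per kilobase of gene, which removes the effect of length. In vehicle the 7 protein genes wholly or partly outside it were at 4401 to 22475 CPM per kilobase, led by mt-Co1 (22475), the catalytic subunit of cytochrome oxidase, and mt-Cytb (15487), the cytochrome b of complex III. These were followed by mt-Nd1 (12154), mt-Nd2 (8039), mt-Nd4 (6130), mt-Nd6 (4941) and mt-Nd5 (4401), all subunits of complex I. Of these neighbours in the order, the vehicle libraries of mt-Nd5 (3917 to 5122) overlapped those of mt-Nd6 (4527 to 5176). The 6 protein genes wholly inside were at 10.2 to 287 CPM per kilobase, and their median of 167 lay 48.2-fold under the median of 8039 outside. Inside, the order was mt-Atp6 (287), mt-Co2 (258), mt-Nd3 (172), mt-Co3 (162), mt-Nd4l (99.9) and mt-Atp8 (10.2), where the vehicle libraries of mt-Atp6 overlapped those of mt-Co2 and those of mt-Nd3 overlapped those of mt-Co3. The lowest gene outside was 15.3-fold above the highest inside. How reads that align equally well to several places were treated is not given in the sources used here, and the part of the copies in these low levels was not tested. Levels of the 6 genes inside are therefore uncertain, and 5 of them are given beside their copies below, while mt-Atp8 has no annotated copy among the 7.

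**Figure D1:**
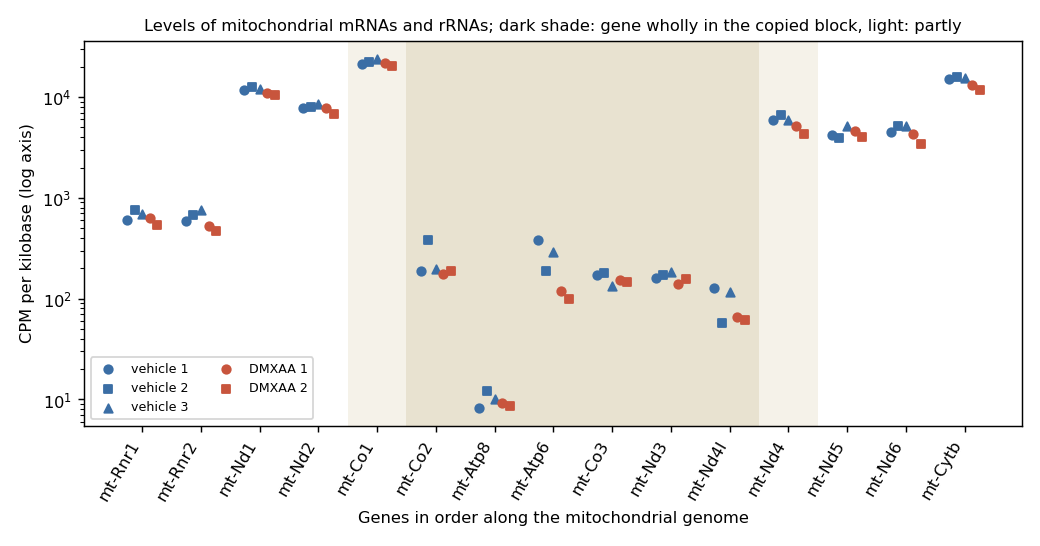
CPM per kilobase (log axis) of the 13 protein genes and 2 rRNA genes in their order along the mitochondrial genome, 1 point per library (blue vehicle, red DMXAA). The 6 genes in the dark shade, wholly inside the stretch copied to chromosome 1, lie between 8.2 and 386 CPM per kilobase in every library, under all protein genes outside it.

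Taken as a sum, mitochondrial transcripts took a smaller share of the DMXAA libraries. The share of all counts was 9.38, 8.98 and 9.96% in vehicle, against 8.70 and 7.80% in DMXAA, or 9.44 ± 0.496% (SD, n = 3) and 8.25 ± 0.634% (SD, n = 2). The groups did not overlap, but vehicle library 2 and DMXAA library 1 were only a small step apart. Nearly all of these counts were protein genes, at 97.8 to 98.1% of the mitochondrial counts in every library. The gap of 1.19 percentage points was 1.64 without DMXAA library 1 and 0.740 without DMXAA library 2, the widest and narrowest of the 5 values with a library left out. Without vehicle library 1, which held the adipose and urothelium markers, the gap was 1.22. No test was made on sums over the members.

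No member was called by the quasi-likelihood test in edgeR after the filter on low counts, and 1 member, mt-Atp6, was called by DESeq2 and by edgeR without that filter. The filtered edgeR test, with Benjamini-Hochberg adjustment over 16226 genes and a threshold of 0.05, called 0 genes (0.0%), with a smallest adjusted p of 0.535, and 1062 genes had an unadjusted p below 0.05. DESeq2 called 55 genes in both directions together (0.381% of its 14441 tested genes), and edgeR without a filter on low counts called 34 (0.121% of 28037). Of the 37 members, 28 passed the filter on low counts, and the other 9 were tRNAs with 0 to 20 counts per library. Of the 28, 27 had estimates below 0 and 1 above, where 53.1% of all genes tested lay below 0, and their median log2 fold change was -0.36 against -0.01 for all genes tested. All 13 protein genes and both rRNAs had estimates below 0, except that mt-Nd5 lay above 0 with the replicate number as a block and without vehicle library 3 or DMXAA library 2, and mt-Atp8 lay above 0 after an offset for transcript length and GC content. In 14 of the 28 members both DMXAA libraries lay below all vehicle libraries, where 12.3% of all genes tested did so. In 0 of the 28 both lay above, against 13.7%. At an unadjusted p below 0.05 there were 3 members with lower estimates, mt-Atp6, mt-Rnr2 and mt-Te, against 2.65% of all genes tested, and 0 with higher estimates, against 3.89%. The median was smaller in size with the length and GC offset (-0.13, 23 of 28 below 0), with the replicate block (-0.18, 23 of 28) and without vehicle library 3 (-0.19, 24 of 28). Vehicle library 3 is alone in its block and adds nothing to the group difference there. The replicate block and the fit without vehicle library 3 are therefore not separate checks. Without vehicle library 1 it was -0.42, with 26 of 28 below 0. Members share their long precursor transcripts and are not independent of each other.

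**Figure D2:**
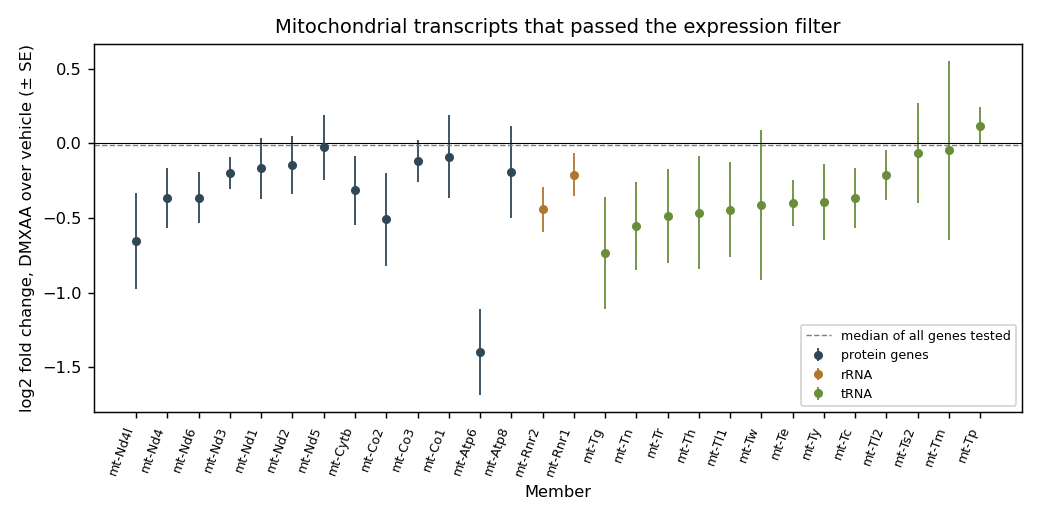
Log2 fold change, DMXAA over vehicle, with its SE, for the 28 members that passed the filter, ordered by class and complex. All but mt-Tp lie below 0 (mt-Tm, mt-Atp8, mt-Ts2 and mt-Tl2 lay above 0 with a length and GC offset), and mt-Atp6, at -1.40, lies lowest. mt-Tm, mt-Tw, mt-Ts2 and mt-Nd5 also lay above 0 with the replicate block and in some fits with a library left out.

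Complex I takes electrons from NADH, and the mitochondrial genome encodes 7 of its membrane subunits. All 7 had estimates below 0, from -0.65 to -0.03. In 4 of them, mt-Nd1, mt-Nd3, mt-Nd4 and mt-Nd6, both DMXAA libraries lay below all vehicle libraries, where 12.3% of all genes tested did so. mt-Nd6 (ENSMUSG00000064368, chrM:13552-14070) is the single protein gene encoded on the minus strand. It was at 2350, 2658 and 2686 CPM in vehicle, against 2227 and 1760 CPM in DMXAA. The DMXAA libraries lay lowest, with DMXAA library 1 close to vehicle library 1, and the log2 fold change was -0.36 (SE 0.17; adjusted p = 0.749). The strand setting of the counting is not given, so reads of mt-Nd6 and of transcripts from the opposite strand cannot be told apart.

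mt-Nd4 (chrM:10167-11544), a proton-pumping subunit, was at 8073, 9128 and 8142 CPM in vehicle, against 7190 and 5917 CPM in DMXAA. Both DMXAA libraries were under the vehicle range, and the log2 fold change was -0.37 (SE 0.20; adjusted p = 0.758). Its first part, 63.6% of its length, lies in the copied stretch. mt-Nd5 (chrM:11742-13565), the neighbouring pump subunit, was at 7597, 7144 and 9342 CPM in vehicle, against 8492 and 7284 CPM in DMXAA. These groups overlapped, with a log2 fold change of -0.03 (SE 0.22; adjusted p = 0.988), the smallest shift among the protein genes. The ratio of mt-Nd4 to mt-Nd5 counts was 1.06, 1.28 and 0.872 in vehicle and 0.847 and 0.812 in DMXAA. The groups of this ratio did not overlap, although vehicle library 3 was near DMXAA library 1.

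mt-Nd1 (chrM:2751-3707), next to the rRNA genes, was at 11171, 12096 and 11626 CPM in vehicle, against 10571 and 10128 CPM in DMXAA. The groups did not overlap, and the log2 fold change was -0.17 (SE 0.20; adjusted p = 0.864). mt-Nd2 (chrM:3914-4951) was at 8033, 8199 and 8801 CPM in vehicle, against 8042 and 7051 CPM in DMXAA. DMXAA library 1 lay within the vehicle range, and the log2 fold change was -0.15 (SE 0.19; adjusted p = 0.877). As a whole, complex I genes took 41.7, 41.5 and 41.6% of the mitochondrial counts in vehicle and 41.7 and 40.9% in DMXAA, so that their share within the mitochondrial transcripts overlapped between the groups.

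Complex III has 1 mitochondrially encoded subunit, cytochrome b. Its gene mt-Cytb (ENSMUSG00000064370, chrM:14145-15288) was at 17363, 18197 and 17593 CPM in vehicle, the narrowest relative spread among the protein genes, and at 15153 and 13328 CPM in DMXAA. Both DMXAA libraries lay well under the 3 vehicle libraries. Group levels were 17718 ± 430 CPM (SD, n = 3) and 14241 ± 1290 CPM (SD, n = 2), and the log2 fold change was -0.32 (SE 0.23; edgeR adjusted p = 0.794, DESeq2 adjusted p = 0.213). As a share of the mitochondrial counts it was 19.4, 19.2 and 18.0% in vehicle and 17.3 and 16.9% in DMXAA, again without overlap.

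Complex IV, cytochrome oxidase, has 3 mitochondrially encoded core subunits. mt-Co1 (ENSMUSG00000064351, chrM:5328-6872), the most abundant member, was at 32615, 34591 and 36965 CPM in vehicle, against 33970 and 31306 CPM in DMXAA. The groups overlapped, with a log2 fold change of -0.09 (SE 0.28; adjusted p = 0.952). The chromosome 1 copy Gm29216 covers 31.3% of its length and differed from it by A1066T in 483 aligned bases. The ratio of mt-Cytb to mt-Co1 counts was 0.532, 0.526 and 0.476 in vehicle and 0.446 and 0.426 in DMXAA, without overlap. As a share of the mitochondrial counts complex IV went the other way from complex III, with 36.7 to 38.0% in the 3 vehicle libraries and 39.0 and 40.1% in DMXAA, while its share of all counts overlapped (3.44, 3.32 and 3.79% against 3.39 and 3.13%).

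**Figure D3:**
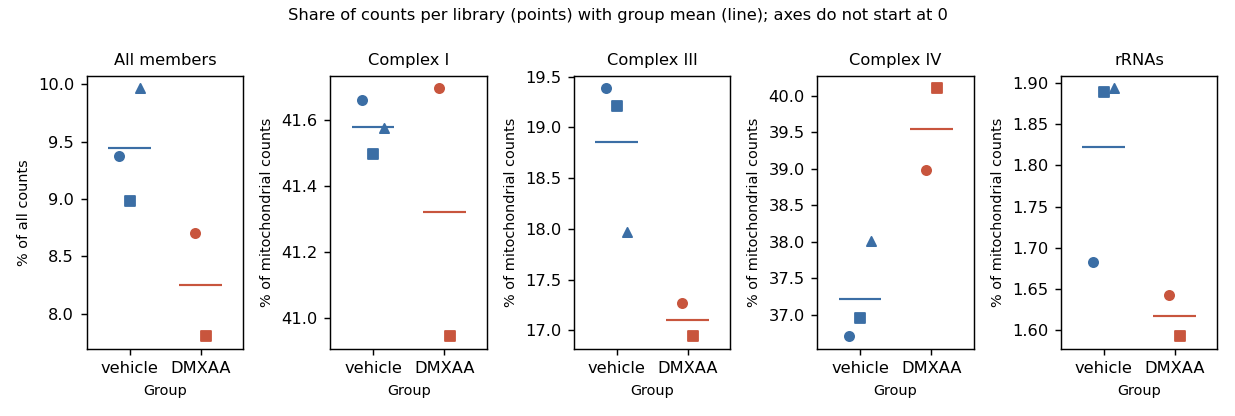
Share of counts per library (points) and group mean (line): all members as a percentage of all counts, then complexes I, III and IV and the rRNAs as a percentage of mitochondrial counts. Axes do not start at 0. Complex III lies lower and complex IV higher in both DMXAA libraries than in the 3 vehicle libraries, while complex I overlaps.

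The other oxidase subunits lie inside the copied stretch. mt-Co2 (chrM:7013-7696), which receives electrons from cytochrome c, was at 130, 264 and 136 CPM in vehicle, against 120 and 128 CPM in DMXAA. Vehicle library 2 was high and the other 4 libraries were close together. The log2 fold change was -0.51 (SE 0.31; adjusted p = 0.770), and -0.10 without vehicle library 2. Its copy Gm28661 was at 83.8, 117 and 78.7 CPM in vehicle, against 80.02 and 61.1 CPM in DMXAA, again with vehicle library 2 highest and with overlapping groups. mt-Co3 (chrM:8607-9390) was at 134, 142 and 105 CPM in vehicle, against 120 and 115 CPM in DMXAA, with overlapping groups and a log2 fold change of -0.12 (SE 0.14; adjusted p = 0.864). Its copy Gm28437 was at 66.3, 99.1 and 60.8 CPM in vehicle, against 68.1 and 48.5 CPM in DMXAA, which also overlapped.

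Complex V has 2 mitochondrially encoded subunits, and one of them, mt-Atp6, had the largest difference among the members. mt-Atp6 (ENSMUSG00000064357, chrM:7927-8607) encodes the a subunit of the proton channel. It was at 263, 128 and 196 CPM in vehicle (4863, 2259 and 3530 counts) and 80.2 and 68.2 CPM in DMXAA (1446 and 1370 counts). Both DMXAA libraries lay under all vehicle libraries, and the vehicle libraries themselves differed by more than the DMXAA pair did. Group levels were 196 ± 67.2 CPM (SD, n = 3) and 74.2 ± 8.55 CPM (SD, n = 2), and the log2 fold change was -1.40 (SE 0.29), or 2.64-fold lower. In edgeR its unadjusted p was 0.00206, rank 52 among 16226 genes, and its adjusted p was 0.629. DESeq2 called it (adjusted p = 0.000292), 1 of 8 lower calls or 0.0554% of its tested genes, and edgeR without a filter called it (adjusted p = 0.0113), 1 of 5 lower calls or 0.0178%. With each library left out in turn the log2 fold change ran from -1.63 without vehicle library 2 to -1.13 without vehicle library 1, and the edgeR adjusted p from 0.0917 without vehicle library 2 to 0.998 without DMXAA library 1 and 1 without DMXAA library 2.

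The nuclear copy of mt-Atp6, Gm10925, was at 105, 116 and 100 CPM in vehicle, against 92.6 and 87.6 CPM in DMXAA. Its DMXAA libraries were also lowest, with a log2 fold change of -0.25 (SE 0.10; unadjusted p = 0.0410, adjusted p = 0.741). The counts of mt-Atp6 were 2.50, 1.11 and 1.96 times those of Gm10925 in vehicle and 0.866 and 0.778 times in DMXAA, without overlap. The ratios of mt-Co2, mt-Co3, mt-Nd3 and mt-Nd4l to their copies all overlapped between the groups. The sum of mt-Atp6 and Gm10925 was 368, 244 and 296 CPM in vehicle, against 173 and 156 CPM in DMXAA, still without overlap. Against the neighbouring mt-Co3, mt-Atp6 had 1.97, 0.903 and 1.86 times its counts in vehicle and 0.671 and 0.595 times in DMXAA. Against mt-Co2 the ratio was 2.03, 0.487 and 1.44 in vehicle and 0.671 and 0.532 in DMXAA, which overlapped. The difference between the shift of mt-Atp6 and those of its copy and neighbours was not tested.

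mt-Atp8 (chrM:7766-7969), a short subunit that supports assembly of the ATP synthase, shares its last 43 bases with the start of mt-Atp6. That overlap, chrM:7927-7969, is shown with the start codon of mt-Atp6 and the stop codon of mt-Atp8 in capitals, since a read within it belongs to both genes.
mt-Atp8 and mt-Atp6 overlap: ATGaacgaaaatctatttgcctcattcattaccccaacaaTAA

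mt-Atp8 had 31, 44 and 37 counts in vehicle and 34 and 35 in DMXAA, or 1.68, 2.50 and 2.05 CPM and 1.89 and 1.74 CPM. The groups overlapped, and the log2 fold change of -0.19 (SE 0.31; adjusted p = 0.897) rests on few reads. The related pair mt-Nd4l and mt-Nd4 shares 7 bases. mt-Nd4l (chrM:9877-10173), a small complex I subunit, was at 37.8, 16.9 and 34.3 CPM in vehicle, against 19.6 and 18.2 CPM in DMXAA. Vehicle library 2 was the lowest of all 5, so the groups overlapped. The log2 fold change of mt-Nd4l was -0.65 (SE 0.32; adjusted p = 0.750), or -0.44 without vehicle library 1 and -0.93 without vehicle library 2. Its copy Gm10222 was at 12.5, 10.0 and 9.76 CPM in vehicle, against 9.60 and 8.61 CPM in DMXAA, with a narrow gap between the groups. In both mt-Atp6 and mt-Nd4l vehicle library 2 was the lowest vehicle library, while in mt-Co2 it was the highest. mt-Nd3 (chrM:9459-9806) was at 55.6, 59.3 and 64.2 CPM in vehicle, against 48.9 and 55.1 CPM in DMXAA. DMXAA library 2 lay only just under vehicle library 1, and the log2 fold change was -0.20 (SE 0.11; adjusted p = 0.750), or -0.02 with the length and GC offset. Its copy Gm28438 was at 10.3, 12.1 and 9.48 CPM in vehicle, against 7.71 and 7.66 CPM in DMXAA, without overlap (log2 fold change -0.47, SE 0.17; edgeR adjusted p = 0.741).

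**Figure D4:**
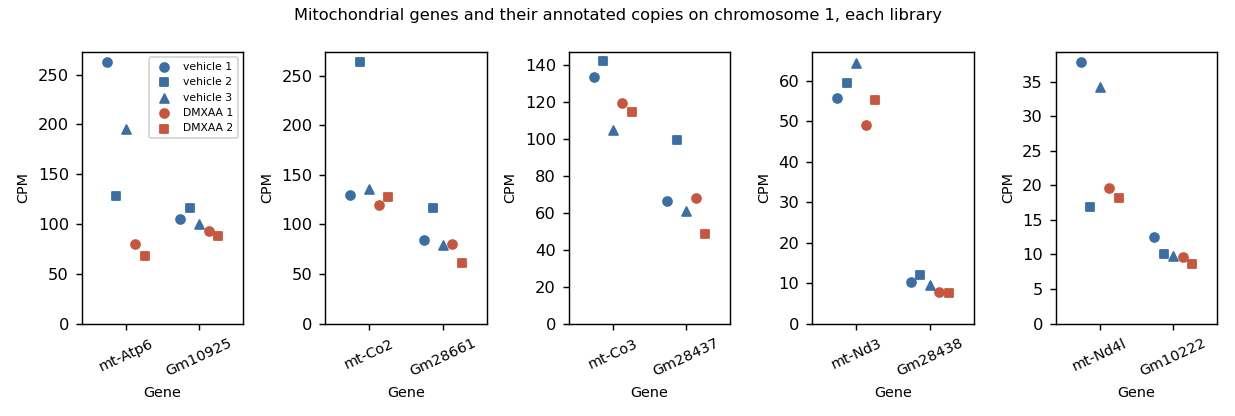
CPM of 5 mitochondrial genes and of their annotated copies on chromosome 1, 1 point per library (blue vehicle, red DMXAA). mt-Atp6 spreads from 68.2 to 263 CPM while its copy Gm10925 stays between 87.6 and 116 CPM, and vehicle library 2 is the high point of mt-Co2.

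The 7 side-by-side copies on chromosome 1 together took 0.0378, 0.0425 and 0.0347% of all counts in vehicle and 0.0341 and 0.0276% in DMXAA, which leaves vehicle library 3 and DMXAA library 1 close together. Of the 27 copies, 8 had a mean of at least 10 counts per library, the 7 of the stretch on chromosome 1 and Gm13340, and 13 had 0 counts in all libraries. Whether the reads counted at the copies came from nuclear or mitochondrial RNA cannot be told from the counts. Adding the counts of the copies to the mitochondrial sum left the groups apart by 1.196 percentage points.

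The 2 rRNAs form the core of the mitochondrial ribosome. mt-Rnr2, the large-subunit 16S rRNA (ENSMUSG00000064339, chrM:1094-2675), was at 934, 1073 and 1196 CPM in vehicle, against 834 and 737 CPM in DMXAA. The groups did not overlap, and the log2 fold change was -0.44 (SE 0.15; unadjusted p = 0.0232, adjusted p = 0.740). mt-Rnr1, the small-subunit 12S rRNA (ENSMUSG00000064337, chrM:70-1024), was at 573, 717 and 658 CPM in vehicle, against 607 and 515 CPM in DMXAA. Here DMXAA library 1 lay inside the vehicle range, and the log2 fold change was -0.21 (SE 0.14; adjusted p = 0.789). The ratio of mt-Rnr2 to mt-Rnr1 counts was 1.63, 1.50 and 1.82 in vehicle and 1.38 and 1.43 in DMXAA, without overlap. Per kilobase both rRNAs, at 466 to 756 CPM in all libraries, lay under every protein gene outside the copied stretch, and the step that selects or depletes RNA in library construction is not described in the labels.

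The 22 tRNA genes are 59 to 75 bases long, and their counts ran from 0 to 3081 per library. Of the 22, 4 had 0 counts in every library, and with 3 counts as the limit, for counting error only, levels of up to 0.148 to 0.170 CPM would go unseen. These were mt-Tf, mt-Ts1, mt-Td and mt-Tk, and the last 3 lie inside the copied stretch. A further 5 had too few counts to be tested (mt-Tv, mt-Ti, mt-Tq, mt-Ta and mt-Tt). Of the 13 tested, 12 had estimates below 0 (with a length and GC offset mt-Tm, mt-Ts2 and mt-Tl2 also lay above 0). In 6 of the 13 both DMXAA libraries lay under all vehicle libraries, where 12.3% of all genes tested did so. For mt-Th the gap ran only from 2.77 CPM in DMXAA to 2.84 CPM in vehicle, and for mt-Ty from 7.82 to 7.95 CPM. Summed, tRNAs took 0.0255, 0.0281 and 0.0350% of all counts in vehicle and 0.0280 and 0.0259% in DMXAA, which overlapped.

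mt-Tp, which carries proline, had the most counts among the tRNAs, and it was the only tested member with an estimate above 0. Its gene, on the minus strand at chrM:15356-15422 beside the control region, is shown for its place as the exception, and mt-Te for glutamic acid, on the minus strand at chrM:14071-14139 between mt-Nd6 and mt-Cytb, for the smallest p among the tRNAs.
mt-Tp: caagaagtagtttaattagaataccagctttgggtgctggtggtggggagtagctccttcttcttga
mt-Te: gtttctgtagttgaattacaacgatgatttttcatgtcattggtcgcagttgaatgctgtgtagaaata

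mt-Tp was at 125, 158 and 153 CPM in vehicle, against 163 and 153 CPM in DMXAA, with overlapping groups and a log2 fold change of 0.12 (SE 0.12; adjusted p = 0.841). mt-Te was at 22.1, 22.9 and 27.2 CPM in vehicle, against 20.3 and 16.2 CPM in DMXAA. Both DMXAA libraries were lowest, and the log2 fold change was -0.40 (SE 0.15; unadjusted p = 0.0353, adjusted p = 0.741), or -0.13 with the length and GC offset. mt-Te adjoins mt-Nd6 on the same strand, and the 2 genes had like shifts (-0.40 and -0.36). The shift of mt-Cytb, its neighbour on the plus strand, was -0.32, while mt-Tp, also on the minus strand, was at 0.12. As the strand setting of the counting is not given, these shifts cannot be assigned to a strand.

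A cluster of 4 tRNA genes lies on the minus strand between mt-Nd2 and mt-Co1, around the origin of light-strand replication. mt-Tc, for cysteine, was at 34.5, 43.9 and 56.4 CPM in vehicle, against 36.9 and 32.8 CPM in DMXAA, and mt-Tn, for asparagine, at 17.4, 26.7 and 35.7 CPM and 20.5 and 15.8 CPM. In both, vehicle library 3 was highest and the groups overlapped (log2 fold changes -0.37, SE 0.20, and -0.55, SE 0.29). mt-Ty, for tyrosine, was at 7.95, 8.19 and 12.8 CPM in vehicle, against 7.82 and 6.87 CPM in DMXAA, so that DMXAA library 1 was just under the lowest vehicle library. The fourth, mt-Ta, was not tested. Vehicle library 3 was also the highest library for mt-Tl1 (9.71 CPM against 4.77 to 5.63), mt-Tw (7.54 against 2.50 to 3.63) and mt-Th (5.71 against 2.74 to 2.87). Without vehicle library 3 the log2 fold change of mt-Tw was 0.25 in place of -0.41, that of mt-Tl1 was -0.09 in place of -0.44 and that of mt-Th was -0.05 in place of -0.47.

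On the plus strand mt-Tl2, between mt-Nd4 and mt-Nd5, was at 17.2, 17.1 and 23.1 CPM in vehicle, against 16.6 and 16.4 CPM in DMXAA. Its DMXAA libraries were just below the lower vehicle libraries (log2 fold change -0.21, SE 0.17, and -0.05 without vehicle library 3). mt-Tg and mt-Tr, inside the copied stretch, had estimates of -0.73 (SE 0.37) and -0.49 (SE 0.32) from 15 to 49 counts per library. mt-Ts2 (-0.07, SE 0.34) and mt-Tm (-0.05, SE 0.60) had overlapping groups, and the estimates of mt-Tl1 and mt-Th were -0.44 (SE 0.32) and -0.47 (SE 0.38).

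Nuclear-encoded subunits of the same complexes had a median near 0. The list holds 75 genes, all tested, and 0 were called. At an unadjusted p below 0.05 there were 3 genes, where 2.65% of all genes tested had lower and 3.89% higher estimates. Of the 75, 57 had estimates below 0 and 18 above, with a median of -0.06. That split moved with the processing, to 36 below and 39 above after an offset for transcript length and GC content and to 29 and 46 without vehicle library 2. In 12 of the 75 both DMXAA libraries lay below all vehicle libraries, where 12.3% of all genes tested did so, and in 1 above, where 13.7% did. Complex I subunits had a median of -0.05 (31 of 37 below 0), complex III of 0.03 (4 of 9), complex IV of -0.17 (10 of 11) and complex V of -0.05 (12 of 18). The medians of complexes I and V lay above 0 after the length and GC offset and without vehicle library 2, that of complex V also without DMXAA library 1, and that of complex III lay below 0 with the replicate block and without vehicle library 1, vehicle library 3 or DMXAA library 2. For complex IV the median was -0.08 (6 of 11 below 0) with the length and GC offset and -0.09 (8 of 11) without vehicle library 2.

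The 3 nuclear subunits with an unadjusted p below 0.05 all had lower estimates. At that threshold 2.65% of all genes tested had lower estimates and 3.89% had higher ones. Ndufa1, an accessory subunit of complex I, was at 98.7, 115 and 112 CPM in vehicle, against 83.2 and 77.1 CPM in DMXAA, a log2 fold change of -0.44 (SE 0.10; edgeR adjusted p = 0.715). Uqcr11, a small subunit of complex III, was at 161, 185 and 170 CPM in vehicle and 132 in both DMXAA libraries (-0.38, SE 0.10). Cox6c, of complex IV, was at 407, 466 and 425 CPM in vehicle, against 346 and 331 CPM in DMXAA (-0.35, SE 0.11). In all of these the groups did not overlap. Ndufs1, the core iron-sulphur subunit of complex I, was on the other side, at 250, 265 and 248 CPM in vehicle, against 278 and 293 CPM in DMXAA (0.17, SE 0.09). Complex II, which has no mitochondrial subunit, had 3 of 4 estimates above 0 and a median of 0.07, which was 0.01 without vehicle library 1 and 0.15 without vehicle library 2, with its flavoprotein gene Sdha at 756, 873 and 808 CPM in vehicle, against 827 and 864 CPM in DMXAA.

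**Figure D5:**
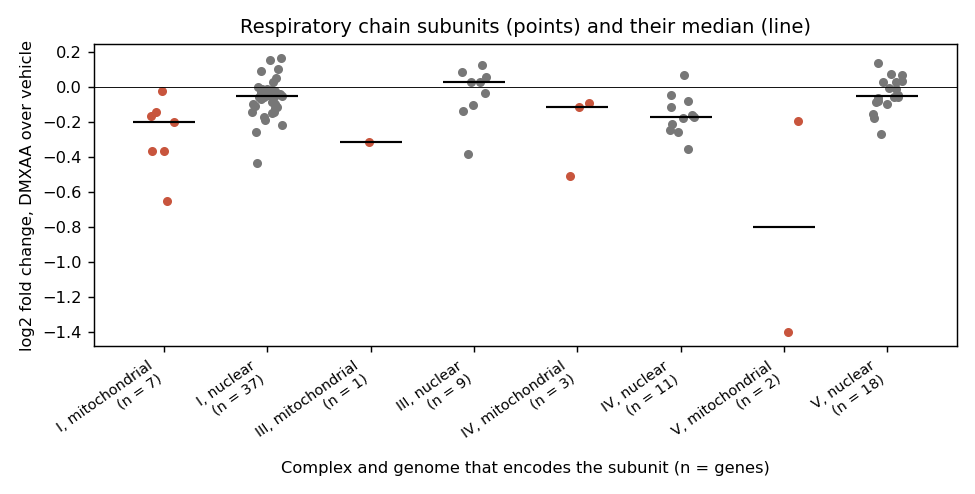
Log2 fold change, DMXAA over vehicle, of the subunits of complexes I, III, IV and V (points) and their median (line), split by the genome that encodes them. The nuclear medians lie between -0.17 and 0.03, and the mitochondrial points all lie below 0, where mt-Atp8 lay above 0 with a length and GC offset.

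Genes that copy and process mitochondrial RNA had medians near 0. Single estimates ran from -0.42 to 0.15 among the transcription genes and from -0.25 to 0.23 among those for processing, modification and decay. Of the 10 transcription genes 6 had estimates above 0 (median 0.06, 0 at an unadjusted p below 0.05), and without vehicle library 1 there were 5 (median 0.01). Polrmt, the mitochondrial RNA polymerase, was at 35.1, 38.8 and 38.4 CPM in vehicle, against 38.2 and 44.8 CPM in DMXAA, and Tfam, which packages mitochondrial DNA and opens its promoters, at 49.3, 60.1 and 55.1 CPM and 58.5 and 56.6 CPM. Both overlapped between the groups, and the log2 fold change of Tfam, 0.07, was -0.01 without vehicle library 1. Tfb2m, which opens the promoter for the polymerase, was at 38.1, 38.1 and 36.4 CPM in vehicle, against 42.3 and 38.5 CPM in DMXAA, with no overlap but a narrow gap.

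Of 35 genes for RNA processing, modification and decay, 24 had estimates above 0 (median 0.04, 0 at an unadjusted p below 0.05). Without vehicle library 3 there were 19 above 0 (median 0.02), and with the replicate block 20 (median 0.02). Lrpprc, which binds and stabilises mitochondrial mRNAs, was at 116, 132 and 118 CPM in vehicle, against 137 and 149 CPM in DMXAA. Its DMXAA libraries lay above all vehicle libraries (log2 fold change 0.23, SE 0.10; edgeR adjusted p = 0.741). Fastkd1, of a family that acts on mitochondrial mRNAs, was at 28.6, 30.3 and 27.9 CPM in vehicle, against 31.6 and 34.9 CPM in DMXAA. Of 15 genes for replication and upkeep of mitochondrial DNA, 12 had estimates below 0 (median -0.10), and Polg, its polymerase, was at 47.6, 48.2 and 50.2 CPM in vehicle, against 46.6 and 43.3 CPM in DMXAA.

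Among 11 regulators of mitochondrial biogenesis, 3 had higher estimates at an unadjusted p below 0.05, where 3.89% of all genes tested did, and 0 were called by edgeR after the filter on low counts. Ppara, a nuclear receptor for fatty acid oxidation genes, was at 48.1, 45.1 and 59.6 CPM in vehicle, against 81.2 and 89.3 CPM in DMXAA, well apart (log2 fold change 0.74, SE 0.13; edgeR adjusted p = 0.583). It was called by DESeq2 (adjusted p = 0.00434) and by edgeR without a filter (adjusted p = 0.0402). Ppargc1a, the coactivator that drives biogenesis, was at 96.7, 93.4 and 109 CPM in vehicle, against 117 and 131 CPM in DMXAA (0.31, SE 0.11; adjusted p = 0.740). Esrrb, an orphan receptor, was at 37.8, 40.3 and 57.8 CPM and 62.3 and 62.9 CPM, with vehicle library 3 near the DMXAA pair.

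Proximal tubule and thick ascending limb cells are rich in mitochondria. The summed level of 15 proximal tubule markers was 18237, 21972 and 16408 CPM in vehicle, against 21966 and 22536 CPM in DMXAA, with overlapping groups. Of the 15, 13 had estimates above 0 (median 0.25), where 53.1% of all genes tested lay below 0. With a library left out the median ran from 0.12 without vehicle library 3 to 0.37 without vehicle library 2. It was 0.13 with the replicate block. The 9 thick ascending limb and distal tubule markers summed to 6530, 7356 and 9954 CPM in vehicle, against 8795 and 9407 CPM in DMXAA, which overlapped. The 9 collecting duct markers had 8 estimates below 0 (median -0.26), and without vehicle library 1 there were 7 (median -0.17). They summed to 1324, 846 and 893 CPM in vehicle, against 770 and 879 CPM in DMXAA, with vehicle library 1 high and overlapping groups. Summed levels of podocyte, endothelial, leukocyte and adrenal markers also overlapped between the groups, and those of 7 skeletal muscle markers were 16.3 to 22.2 CPM in vehicle and 9.75 to 10.3 CPM in DMXAA. Only 2 of these 7 passed the filter on low counts. The list includes Pvalb, which is also among the 9 thick ascending limb and distal tubule markers, so its sum does not measure muscle alone. The 6 red blood cell markers summed to 344, 244 and 169 CPM in vehicle, against 112 and 95.1 CPM in DMXAA, with none at 0. Slc4a1 is in both this list and that of the collecting duct, so their sums share a gene and neither measures its cell type alone. Mature mouse red cells lack mitochondria. The part of these cell types in the mitochondrial values was not tested.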

How the data were processed

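RNA was sequenced from kidneys of 3 vehicle and 2 DMXAA samples. The authors deposited a table of raw counts per gene; per the submitters' processing notes the tools include HISAT2, featureCounts (Subread) and DESeq2 1.16.1 and the build is mm10. TruSeq and NEBNext kits are both named, without saying which sample had which. The sources used here do not give the RNA selection, the strand setting or how reads with several equal alignments were treated. Of the gene IDs, 54495 (99.93%) matched GENCODE M21, which gave symbols, positions and sequences.

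Columns were read as vehicle and DMXAA from their name prefixes. Counts were fitted with edgeR 4.0.16 in R 4.3.3 (filterByExpr, TMM, quasi-likelihood test, both groups in 1 fit), with p-values adjusted by Benjamini-Hochberg over all genes tested. The SE is the size of the log2 fold change divided by the square root of F. The biological coefficient of variation was 19.0%. Library totals set the limit for a gene with 0 counts at 0.148 to 0.170 CPM. Nuclear copies were annotated nuclear transcripts aligned by blastn 2.17.0 (E-value up to 1e-05, identity of at least 80%, at least 50% of the copy's length). The fit was also run on counts simulated with its own fitted dispersions. The changes put into them were larger than the shift of every tested member other than mt-Atp6. That run therefore does not show how the fit handles shifts as small as those of most members.

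Members and gene lists were chosen with earlier results of these data known. Named were the 13 protein genes, 2 rRNAs and tRNAs with a mean of at least 10 counts, up to 3 members of each nuclear list with the smallest unadjusted p, Polrmt, Tfam, Lrpprc and Ppargc1a, and up to 2 markers of each cell type with the highest mean CPM. Other genes named, the copies among them, were chosen after their values were seen. Alternatives were DESeq2 1.42.0, other scalings, filters and dispersion settings, an offset for length and GC content, a replicate block and leaving out each library.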

Additional observations from a re-analysis of the deposited data

How the results depend on the processing

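The count of genes called, 0 in edgeR (1062 at an unadjusted p below 0.05), was 34 without a filter on low counts, 55 in DESeq2 and 4 with the replicate number as a block, and ran from 0 to 2 with each library left out, reaching 2 without vehicle library 1. The mitochondrial share kept its direction under all alternatives run, with gaps of -1.64 to -0.74 percentage points with a library left out. The labels link same-numbered samples by number alone. The correlations of their deviations from the group means were 0.07 and 0.08 over 2 pairs, and vehicle library 3 has no partner. With 2 DMXAA libraries these deviations mirror each other, so the correlations cannot show whether samples were paired. Of the 28 members tested, 23 had estimates below 0 with the replicate block (median -0.18), 23 with the length and GC offset (median -0.13) and 24 without vehicle library 3 (median -0.19). The replicate block takes no group difference from vehicle library 3, so it is not a separate check from leaving that library out. Log2 fold changes that turned positive with the length and GC offset were those of mt-Tm (0.124), mt-Atp8 (0.0735), mt-Ts2 (0.187) and mt-Tl2 (0.0650), and with the replicate block those of mt-Tm (0.0529), mt-Tw (0.248), mt-Ts2 (0.155) and mt-Nd5 (0.0944). With each library left out, mt-Tm ran from -0.410 to 0.599, mt-Tw from -0.685 to 0.250, mt-Ts2 from -0.296 to 0.149, mt-Nd5 from -0.134 to 0.0969, Mterf2 from -0.431 to 0.00781 and Tfam from -0.00804 to 0.142, and the gap in the tRNA share from -0.00456 to 0.000179 percentage points. For these turns the cause was not tested. With 2 DMXAA libraries, leaving 1 out assumes that the lone library varies like the vehicle libraries. Low counts limit mt-Atp8 and the 9 tRNAs that were not tested.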
